A study of Sus scrofa with 6 samples.

Results

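Zinc finger transcription factors are described here in cloned pig embryos and in the cells they were cloned from. The genes were those whose single annotated symbol starts with ZNF, ZKSCAN, ZSCAN or ZBTB, or with ZFP and a digit. This gave 56 of the 6765 genes with a single symbol on the array, measured by 81 of its 23999 probe sets. Where a gene had several probe sets, the one with the highest mean log2 signal over the 6 arrays stood for it. The study injected nuclear transfer embryos with an antibody against DJ-1, the product of PARK7, to learn how DJ-1 affects early development. The groups were embryos injected with anti-DJ1 antibody (n = 2 arrays), embryos injected with IgG (n = 2), non-injected transfer embryos (n = 1) and donor cells (n = 1). Trial 1 held 1 array of each group, and trial 2 a further anti-DJ1 and a further IgG array, made from biologically different samples per the design text. Each embryo array was hybridised with RNA of a pool of 23 to 26 embryos, collected 28 h after transfer when many had just reached the 2-cell stage. Recipient oocytes came from a slaughterhouse, embryos were cultured in PZM-3 medium, and the donor cells were fibroblasts grown from an adult Meishan pig. All embryo groups therefore carried transferred nuclei, and the donor group was a single culture on a single array.

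Most of these genes encode proteins with C2H2 zinc fingers, small domains that fold around a zinc ion and, in tandem, read a DNA sequence. Many add a KRAB domain, which recruits the corepressor TRIM28 and with it the histone methyltransferase SETDB1, or a SCAN or BTB domain, through which the proteins pair with one another. KRAB zinc finger proteins are known for silencing transposable elements, and in mouse embryos some protect methylation at imprinted genes after fertilisation. The symbol rule also takes in proteins of other function, such as ZFP36 (tristetraprolin), which binds and destabilises mRNA through CCCH fingers, and ZFP91, an atypical ubiquitin ligase. An embryo at this stage holds mostly RNA stored by the oocyte.

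Signals are deposited in arbitrary units and were compared only within a probe set. Each array was given a background mark, its highest signal among the control probe sets for artificial tag sequences, which lay between 21.4 and 47.0. Of the 56 genes, 34 were above the mark of every array and 4 (ZFP42, ZNF205, ZNF335 and ZNF653) were below it on all 6. A further 5 genes (ZBTB48, ZNF232, ZNF32, ZNF322 and ZNF688) were below the mark on all 5 embryo arrays and above it in donor cells. ZNF648 and ZKSCAN4 were above it on all 5 embryo arrays and below it in donor cells, and the other 11 genes were above it on some embryo arrays only. Testing used the probe sets in the upper 60% by mean log2 signal, and 42 of the 56 genes passed, or 75%, against 77.1% of all single-symbol genes. Across the zinc finger genes, log2 signals of embryo arrays correlated with each other at r = 0.949 to 0.977 and with the donor array at r = 0.351 to 0.438. These correlations are across genes on shared arrays and describe the arrays only.

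**Figure D1:**
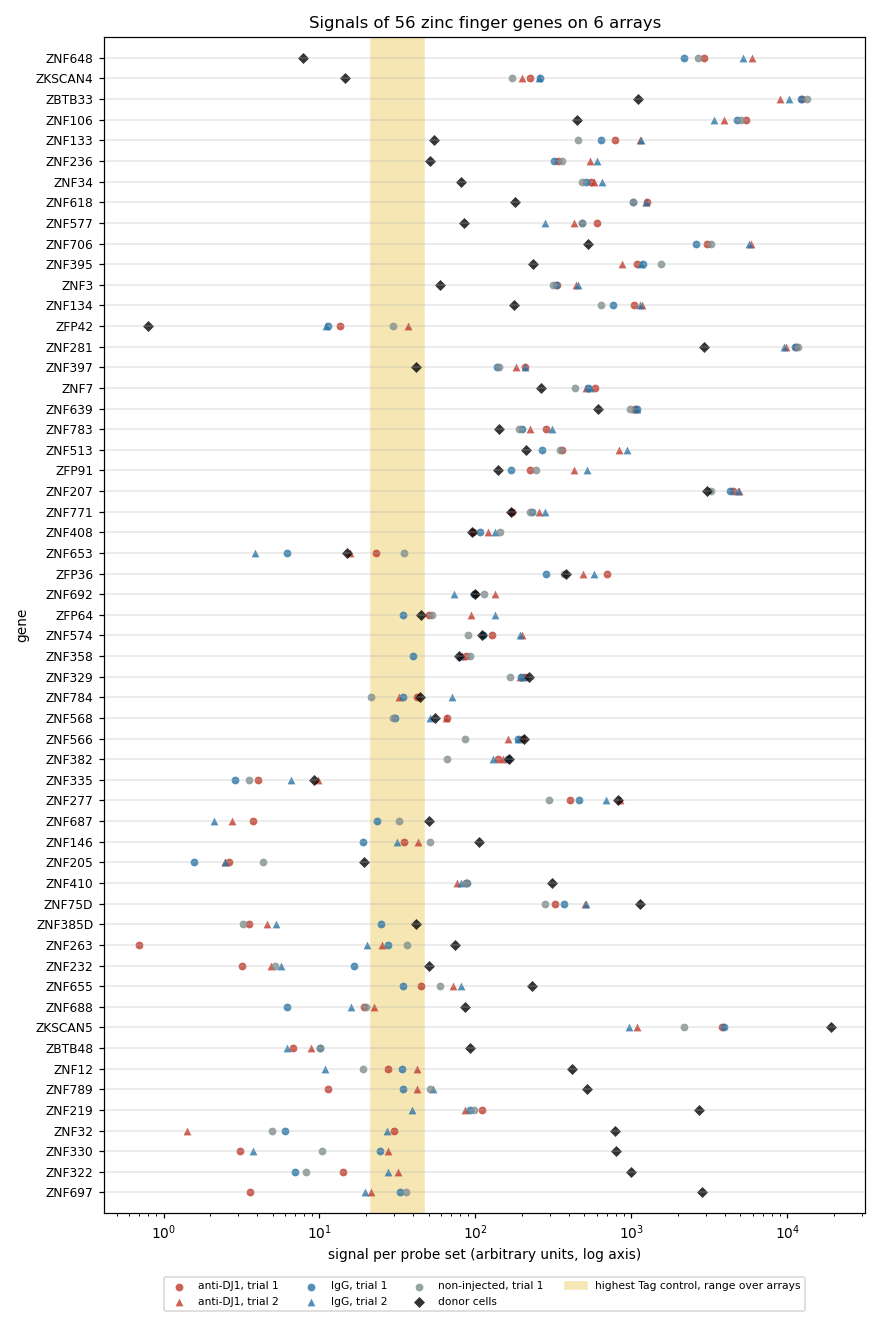
Signal (log axis, arbitrary units) of the 56 zinc finger genes, 1 row per gene and 1 point per array, ordered by the difference between embryos and donor cells. The shaded band spans the highest tag control of the arrays, 21.4 to 47.0. To the right of the band embryo points mostly lie close together, and donor points lie far to their left at ZNF648 and far to their right at ZNF697 and ZNF322.

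The array data carried the marks of their labels with exceptions. Of 12 oocyte and early embryo markers, 8 had a named probe set; all 8 were above background on every embryo array and 3 in donor cells, with summed signals of 69637 to 112343 in embryos against 219.7 in donor cells. Of 12 fibroblast markers, 11 had a named probe set, with summed signals of 1678 to 2053 in embryos against 66803 in donor cells. Vimentin, a filament protein of mesenchymal cells, was at 348 to 422 in embryos against 31965 in donor cells. LUM, DCN and POSTN, also fibroblast markers, were at 1.71, 5.58 and 22.7 in donor cells, below background. DCN was at 54.7 to 111 on the 5 embryo arrays, above background and opposite to its label. COL6A3 overlapped, at 24.1 to 49.6 in embryos against 35.5 in donor cells. The cumulus and granulosa list (11 of 12 measured) summed to 1717 to 2290.0 in embryos against 12911 in donor cells, where KRT8 and KRT18 stood at 9907 and 2103. The leukocyte and endothelial list (8 of 10 measured) summed to 289 to 545 in embryos against 267 in donor cells. The ratio of the 3′ to the 5′ probe set of the control EF1A was 24.2 and 8.20 on the anti-DJ1 arrays of trials 1 and 2, 23.9 and 9.34 on the IgG arrays, 29.95 on the non-injected array and 4.23 on the donor array. It was lower in trial 2 than in trial 1 and lowest in donor cells, and its part and that of the markers in the results below was not tested.

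The comparison of embryos with donor cells asked which zinc finger transcripts differ between transfer embryos and the cells that supplied their nuclei. There was no oocyte array, so RNA stored by the oocyte and RNA made by the transferred nucleus cannot be told apart. Of the 42 tested genes, 29 differed (limma, adjusted p under 0.05), 19 of them higher and 10 lower in embryos. That is 69.0% of the genes, against 72.9% of all 14399 tested probe sets. Higher calls made up 45.2% of the genes against a background of 36.4%, and lower calls 23.8% against 36.5%. Of the 29, 25 differed at least 2-fold in the fit, which sets embryos to the level of trial 1. The matching share of all probe sets was not computed. By plain mean log2 signals ZNF277, among the 25, was only 1.64-fold lower, while ZNF513, outside them, was 2.29-fold higher. Of the 10 lower genes, 4 (ZNF697, ZNF12, ZNF789 and ZNF146) were tested only because the donor signal lifted their mean over the filter. They had to be lower in embryos, so their calls are no support, though the counts and shares above include them. The embryo mean of the other 6 passed the filter. The median log2 change of the 42 genes was 0.33, beside -0.02 over all tested probe sets. In such bulk samples, fewer cells of a type and less RNA per cell cannot be told apart. Each p assumes that the single donor array varies like the replicated ones.

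**Figure D2:**
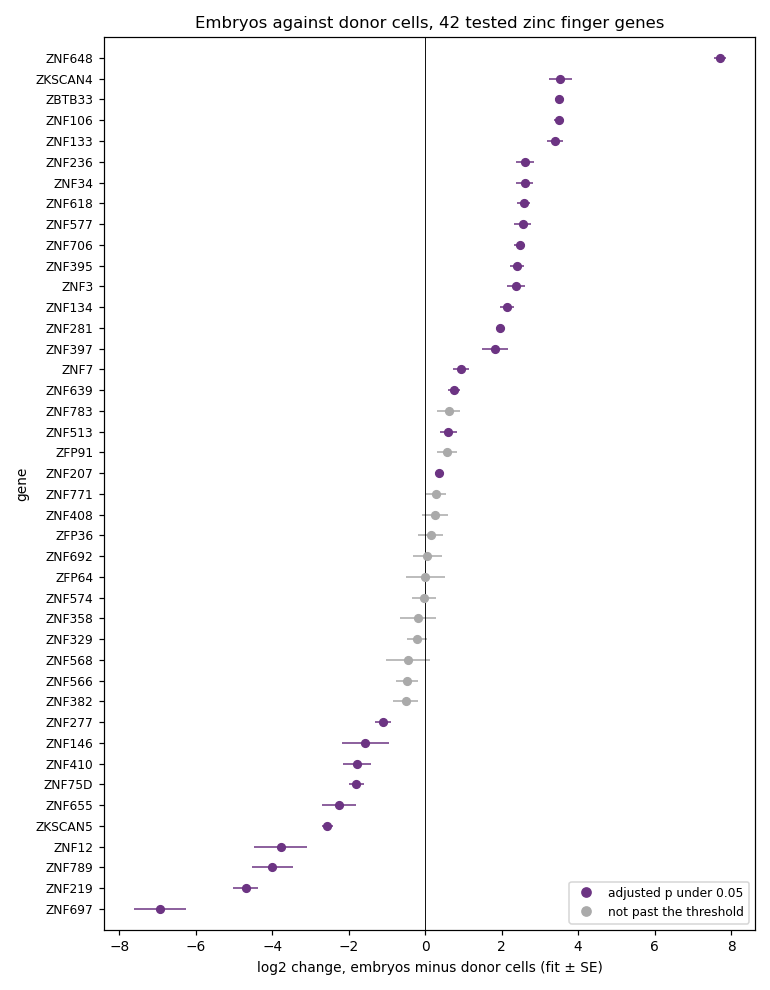
Log2 change of the 42 tested zinc finger genes, embryos minus donor cells (point: limma estimate, bar: SE). Purple points passed an adjusted p of 0.05. They run from ZNF697, whose embryo signals were mostly below background, to 7.70 for ZNF648, with 19 to the right of 0 and 10 to the left.

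ZNF648 had the largest difference. Its signal was 2935 and 5901 in anti-DJ1, 2177 and 5167 in IgG and 2686 in non-injected embryos, against 7.85 in donor cells. All 5 embryo arrays were far above a donor signal that lay below background, and the 2 trial 2 arrays were the highest. The log2 change was 7.70 ± 0.16 (SE, limma, adjusted p = 1.13e-12). Since the donor value is only a bound, the signal was at least 102-fold higher in embryos. ZKSCAN4, which joins a SCAN and a KRAB domain to its fingers, was likewise above background in embryos alone. It had 224 and 200.02 in anti-DJ1, 259.6 and 256 in IgG and 172 in non-injected embryos, against 14.5 in donor cells. The embryo arrays lay close together and above background, and the donor array lay below it. The signal was at least 6.4-fold higher in embryos. The fitted log2 change was 3.53 ± 0.30 (SE, limma, adjusted p = 4.02e-07).

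ZBTB33, or Kaiso, a BTB protein that binds methylated CpG sites, had 12391 and 8969 in anti-DJ1, 12163 and 10186 in IgG and 13321 in non-injected embryos, against 1107 in donor cells. No embryo array came near the donor value, and the log2 change was 3.50 ± 0.12 (SE, limma, adjusted p = 9.38e-11). ZNF106, an RNA-binding protein in mouse, had 5408 and 3946 in anti-DJ1, 4765 and 3390.3 in IgG and 5079.7 in non-injected embryos, against 447 in donor cells. Embryos were again well above donor cells throughout, by 3.49 ± 0.13 (SE, limma, adjusted p = 2.04e-10) on the log2 scale. ZNF133, a KRAB protein, had 786 and 1132 in anti-DJ1, 639.7 and 1156 in IgG and 453 in non-injected embryos, against 54 in donor cells. Its trial 2 arrays were above the trial 1 arrays, and all were above donor cells, with a difference of 3.39 ± 0.20 (SE, limma, adjusted p = 1.17e-08).

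ZNF281 binds GC-rich promoter boxes and partners with pluripotency factors in mouse embryonic stem cells. It had 11351 and 9853 in anti-DJ1, 11121 and 9495 in IgG and 11633 in non-injected embryos, against 2920.0 in donor cells. The 5 embryo arrays were within a narrow span, and the log2 change was 1.96 ± 0.11 (SE, limma, adjusted p = 1.08e-08). ZNF706, which in mouse embryonic stem cells promotes the exit from self-renewal, had 3049 and 5849 in anti-DJ1, 2583 and 5713 in IgG and 3229 in non-injected embryos, against 526 in donor cells. All embryo arrays exceeded donor cells, with the trial 2 pair highest, and the log2 change was 2.47 ± 0.14 (SE, limma, adjusted p = 6.94e-09). ZNF618, a partner of UHRF2, a reader of hydroxymethylated DNA, had 1260.1 and 1249 in anti-DJ1, 1017 and 1237 in IgG and 1019.7 in non-injected embryos, against 179.9 in donor cells. The embryo arrays did not overlap the donor value, and the log2 change was 2.57 ± 0.18 (SE, limma, adjusted p = 4.55e-08).

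ZNF395, a factor linked to hypoxia responses, had 1084 and 868 in anti-DJ1, 1192 and 1160.0 in IgG and 1541 in non-injected embryos, against 234 in donor cells. The non-injected array was the highest and donor cells the lowest, and the log2 change was 2.40 ± 0.17 (SE, limma, adjusted p = 7.64e-08). ZNF236 had 337 and 539 in anti-DJ1, 317 and 604 in IgG and 359 in non-injected embryos, against 51.2 in donor cells. The embryo arrays were several-fold above the donor array, by 2.62 ± 0.23 (SE, limma, adjusted p = 5.16e-07) on the log2 scale. Of the KRAB genes, ZNF577 had 278 to 601 on the 5 embryo arrays, against 84.5 in donor cells. ZNF34 had 482 to 644 on the 5 embryo arrays, against 80.9 in donor cells. Both stood above donor cells on every embryo array, by 2.55 ± 0.22 and 2.60 ± 0.21 on the log2 scale (SE, limma, adjusted p = 4.71e-07 and 2.37e-07). ZNF134, the KRAB gene ZNF3 and the SCAN gene ZNF397 were higher in embryos by 2.14 ± 0.19, 2.37 ± 0.23 and 1.83 ± 0.34 (SE).

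A last group differed by less. ZNF7, another KRAB gene, had 586 and 509 in anti-DJ1, 524 and 546 in IgG and 438 in non-injected embryos, against 265 in donor cells. Its embryo arrays all lay above donor cells, with a difference of 0.94 ± 0.20 (SE, limma, adjusted p = 0.00109). ZNF639 and ZNF513 were higher by 0.75 ± 0.16 and 0.61 ± 0.23 (limma, adjusted p = 0.00123 and 0.0303). ZNF207, or BuGZ, a kinetochore protein that loads BUB3, had 4513 and 4916 in anti-DJ1, 4298 and 4841 in IgG and 3215 in non-injected embryos, against 3063 in donor cells on its brighter probe set. That probe set was higher by 0.37 ± 0.13 (SE, limma, adjusted p = 0.0183). Its non-injected array was almost level with donor cells. ZNF34 and ZNF7 are also neighbours in the RefSeq order, with only RPL8 between them. The calls for ZNF7, ZNF639, ZNF513 and ZNF207, and those for ZNF146 and ZNF277 below, were lost when the trial term was dropped, and the other 23 calls were kept. The ZNF513 call was also lost without the non-injected array, at a log2 change of 0.55 and an adjusted p of 0.0605.

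Of the genes lower in embryos, ZNF697 had 3.58 and 21.3 in anti-DJ1, 32.6 and 19.5 in IgG and 35.7 in non-injected embryos, against 2828 in donor cells. Only 1 embryo array, that of IgG in trial 1, was above its background mark, and donor cells stood far above all of them. With each embryo array taken at its signal or its background mark, whichever is higher, it was at least 72.2-fold lower in embryos. ZNF219, a partner of SOX9 in mouse cartilage, had 109.9 and 86.1 in anti-DJ1, 92.5 and 39 in IgG and 97.9 in non-injected embryos, against 2702 in donor cells. It was above background on 4 of 5 embryo arrays, and every array was far below donor cells. The log2 change was -4.70 ± 0.33 (SE, limma, adjusted p = 6.06e-08). ZNF12, a KRAB gene, had 27.5 and 42 in anti-DJ1, 34 and 10.8 in IgG and 19 in non-injected embryos, against 418 in donor cells. Only 2 embryo arrays were above background, and the donor signal was far above it. Taken in the same way, it was at least 10.5-fold lower in embryos.

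ZKSCAN5, a SCAN and KRAB protein, had 3829 and 1092 in anti-DJ1, 3948 and 964 in IgG and 2184 in non-injected embryos, against 18918 in donor cells. The groups did not overlap, and the trial 1 and trial 2 arrays stood apart. The log2 change, which the trial term sets to the level of trial 1, was -2.56 ± 0.14 (SE, limma, adjusted p = 4.95e-09). In the RefSeq order of genes (assembly Sscrofa11.1) ZKSCAN5 lies next to ZNF789, a KRAB gene, with no coding gene between them, and ZNF655 follows after 1 coding gene, FAM200A. ZNF789 had 11.3 and 42 in anti-DJ1, 34.5 and 53.6 in IgG and 51.5 in non-injected embryos, against 516 in donor cells. ZNF655 had 44.8 and 71.6 in anti-DJ1, 34.4 and 80.6 in IgG and 58.9 in non-injected embryos, against 231 in donor cells. ZNF655 was lower in embryos, at -2.25 ± 0.45 on the log2 scale (limma, adjusted p = 0.000649). ZNF789 was at least 12.2-fold lower, with 4 embryo arrays above background. As it was tested only through its donor signal, its call adds no support to a direction shared by the 3 neighbours. The zinc finger genes held 8 neighbour pairs with at most 5 coding genes between, and lower calls made up 36.5% of all tested probe sets. Whether neighbours share a direction was not tested.

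ZNF75D had 322 and 504 in anti-DJ1, 367 and 511 in IgG and 279 in non-injected embryos, against 1127 in donor cells. Every embryo array was below donor cells, with a difference of -1.80 ± 0.20 (SE, limma, adjusted p = 4.28e-06). ZNF410, which in human cells activates the remodeler gene CHD4, had 86.7 and 76.1 in anti-DJ1, 88.1 and 81.1 in IgG and 86.6 in non-injected embryos, against 311 in donor cells. The 5 embryo arrays of ZNF410 lay within a few units of each other and below donor cells, with a difference of -1.78 ± 0.36 (SE, limma, adjusted p = 0.000638). ZNF277 had 401 and 845 in anti-DJ1, 459.7 and 686 in IgG and 295 in non-injected embryos, against 819.7 in donor cells. Its anti-DJ1 array of trial 2 was above donor cells and the other 4 embryo arrays below, with a difference of -1.10 ± 0.21 (SE, limma, adjusted p = 0.000383). ZNF146, a protein made almost wholly of fingers, had 34.7 and 43 in anti-DJ1, 19.1 and 31.3 in IgG and 51.2 in non-injected embryos, against 106 in donor cells. Both IgG arrays were below background, and the other 3 embryo arrays were just above it. It was at least 2.81-fold lower in embryos with arrays taken at their mark. The call was also lost under both other scalings and with no filter, where the adjusted p was 0.0658.

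The other 13 tested genes did not pass. ZFP36 had 698 and 487 in anti-DJ1, 283 and 579 in IgG and 369 in non-injected embryos, against 378 in donor cells, and its embryo and donor values overlapped. ZFP91 and ZNF783 came closest, at 0.57 ± 0.26 and 0.62 ± 0.30 (limma, adjusted p = 0.0682 and 0.0844). Near 0 were ZFP64 at 0.0032 ± 0.51 and ZNF574 at -0.02 ± 0.32. These changes are set to the level of trial 1. On the trial 2 arrays ZFP64 had 93.9 in anti-DJ1 and 133 in IgG embryos, against 44.9 in donor cells. ZFP91 had 170 to 522 on the 5 embryo arrays, all above the 140 of donor cells. The median 95% confidence interval of a tested gene reached 1.49-fold to either side.

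The 14 genes outside the filter were mostly dim in embryos, and some were bright in donor cells. ZNF322 had 14.1 and 31.8 in anti-DJ1, 6.97 and 27.5 in IgG and 8.17 in non-injected embryos, against 991 in donor cells. No embryo array was above background, and the signal was at least 27.5-fold lower in embryos. ZNF32 had 30.1 and 1.42 in anti-DJ1, 6.04 and 27 in IgG and 4.99 in non-injected embryos, against 781 in donor cells, at least 21.7-fold lower in embryos, and its second probe set pointed the same way. ZNF330, a nucleolar protein, had 3.1 and 27.4 in anti-DJ1, 24.4 and 3.77 in IgG and 10.4 in non-injected embryos, against 798 in donor cells. Only its IgG array of trial 1 was above background, and every embryo array was far below donor cells. ZBTB48, or TZAP, a telomere-binding BTB protein, had 6.8 and 8.77 in anti-DJ1, 10.1 and 6.16 in IgG and 10.0 in non-injected embryos, against 92.8 in donor cells, at least 2.58-fold lower in embryos. With no filter, 37 of all 56 genes differed (66.1%, against 53% of all probe sets), 20 higher and 17 lower (backgrounds 22.6% and 30.4%). These shares are not like for like. Each gene stands by its brightest probe set, while the backgrounds count every probe set, dim ones included. The filter passed 75% of the genes against 60% of probe sets. Of the 14 dim genes, 8 were lower and 1 higher in that fit. Among the lower, ZNF205 was below background on all 6 arrays, at 1.56 to 4.34 in embryos against 19.2 in donor cells. The 1 higher was ZFP42, or REX1, a marker of pluripotent cells, but it too was below background on all 6 arrays, and no fold is given.

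Counted without a test, all 5 embryo arrays were above donor cells for 24 genes, or 42.9% (background 31.1%). They were all below for 22, or 39.3% (background 39.4%), and overlapped for 10. These backgrounds too count every probe set, while each gene stands by its brightest. The split between higher and lower depended on scaling. Setting all arrays to a common 75th percentile moved the median of all tested probe sets from -0.02 to 0.59, and quantile normalization moved it to 0.41. The genes then split 24 higher to 9 lower and 23 higher to 9 lower, beside 19 to 10 as deposited. Over all probe sets, the higher share of calls was 63.2% and 59.7%, beside 49.98%. Without the non-injected array 28 genes differed (18 higher, 10 lower). A fit of trial 1 alone was also run. Its log2 changes equal those of the main fit by construction, as the trial term sets embryos to trial 1, so it is no separate check. Both settings were chosen after the data were seen.

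Several genes were measured more than once, and 15 of the 56 had 2 to 6 probe sets. The 6 probe sets of ZNF281 all had positive differences, from 0.28 to 2.69 on the log2 scale. The smallest was 0.28 ± 0.13 (SE, limma, adjusted p = 0.0741), from 4135 and 2859 in anti-DJ1, 4073 and 2487 in IgG and 4265 in non-injected embryos, against 3421 in donor cells, where 2 embryo arrays were below donor cells. The 3 probe sets of ZNF106 ran from 1.54 to 3.49, the 4 of ZNF395 from 0.36 to 2.40 and the 2 of ZNF618 from 1.39 to 2.57. ZNF207 was the exception. Its second probe set had 14.6 and 4 in anti-DJ1, 5.95 and 7.16 in IgG and 0.827 in non-injected embryos, against 616 in donor cells, all 5 embryo arrays being below background. It was at least 17.1-fold lower in embryos (limma with no filter, adjusted p = 3.90e-05). The probe sets of ZNF207 thus gave opposite directions. ZFP64, ZNF385D and ZNF568 also had probe sets of opposite sign, but with less to set them apart. The positive changes of ZFP64 were 0.0032 and 0.0079. That of ZNF385D was 0.14, from a probe set below background on every array. The second probe set of ZNF568, at 0.83, was above background on 1 embryo array only.

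**Figure D3:**
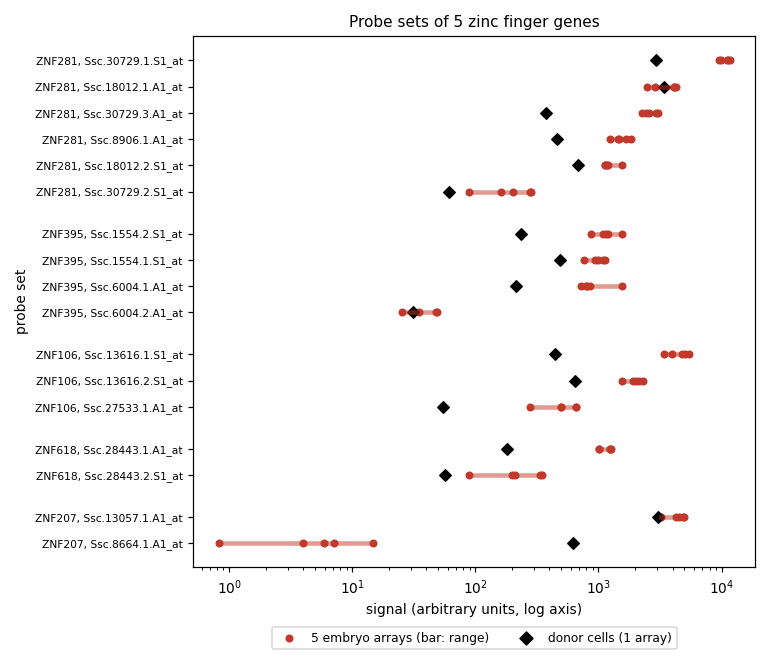
Signals (log axis, arbitrary units) of all probe sets of 5 zinc finger genes, with the 5 embryo arrays in red (bar: their range) and donor cells as black diamonds. Embryos lie to the right of donor cells for most probe sets, and the second ZNF207 probe set lies far to their left.

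The partners through which KRAB and BTB proteins act were set beside these genes. Of 14 KRAB corepressor genes, 9 had a named probe set here and all 9 were tested, 3 higher and 2 lower in embryos, against the 36.4% and 36.5% of all probe sets. TRIM28 itself had no named probe set, nor had CBX1, CBX5, ZFP57 and UHRF1. DNMT1, the maintenance DNA methyltransferase, and SETDB1 were higher by 4.89 ± 0.13 and 3.42 ± 0.12. CBX3, a heterochromatin protein, and HDAC1, a histone deacetylase, were lower, at -2.45 ± 0.13 and -0.87 ± 0.16 (limma, adjusted p = 6.33e-09 and 0.000313). Of 8 BTB partners, 3 were tested, and all were higher in embryos (background 36.4%): SIN3A, a scaffold of histone deacetylase complexes, by 3.39 ± 0.12, the corepressor NCOR1 by 2.77 ± 0.12 and the deacetylase HDAC3 by 0.50 ± 0.17. Among C2H2 factors with other symbols, 15 of 84 were tested, and 5 were higher and 7 lower, against the same backgrounds. PLAGL1, an imprinted gene, was higher by 3.30 ± 0.12. KLF10, a Krüppel-like factor, and ADNP were lower, at -5.45 ± 0.29 and -4.18 ± 0.22. KLF9, another Krüppel-like factor, was above background on 1 embryo array and was tested only through its donor signal, at least 94.6-fold lower in embryos.

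Anti-DJ1 embryos set against the IgG embryos of their trial formed the study's main contrast, and 0 of the 42 zinc finger genes passed it (limma). The background was 0%, since 0 of 14399 probe sets passed. At an unadjusted p under 0.05 stood 3 genes, and 838 probe sets or 5.82% of all. The median log2 change of the genes was 0.05, beside -0.01 over all probe sets, and 27 of 42 were above 0 (64.3%, against 49.1% of all probe sets). The signs in the trials matched for 22 genes and differed for 20, a share of 52.4% beside 51.3% of all probe sets. The median absolute log2 ratio of the genes was 0.23 in trial 1 and 0.18 in trial 2. In both trials 30 of the 42 genes stayed within 0.5 on the log2 scale.

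**Figure D4:**
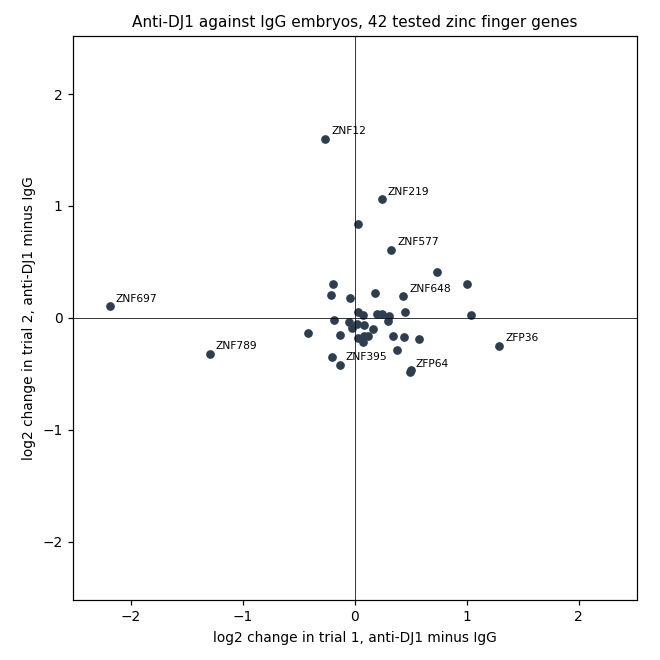
Log2 change between anti-DJ1 and IgG embryos for the 42 tested zinc finger genes, trial 1 on the horizontal and trial 2 on the vertical axis, 1 point per gene. Most points crowd around 0, and ZNF697 at -2.19 in trial 1 and ZNF219 at 1.06 in trial 2 lie apart from them along 1 axis each. Both of these changes include a signal below its background mark.

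The genes with the smallest p are given as values. ZNF577 had 601 and 426 with anti-DJ1 antibody, against 479.6 and 278 with IgG. It was above its control in both trials, by 0.32 and 0.61, with a mean of 0.47 ± 0.19 (SE, limma, adjusted p = 0.853). ZNF648 had 2935 and 5901 with anti-DJ1 antibody, against 2177 and 5167 with IgG. Within trials it was above its control by 0.43 and 0.19, a mean of 0.31 ± 0.14 (SE, limma, adjusted p = 0.853), which is smaller than its gap between trials. ZNF219 had 109.9 and 86.1 with anti-DJ1 antibody, against 92.5 and 39 with IgG, a mean of 0.65 ± 0.29 (SE, limma, adjusted p = 0.853). It differed by 0.24 in trial 1 and 1.06 in trial 2, where the IgG signal was below its background mark of 45.7.

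ZNF395 had 1084 and 868 with anti-DJ1 antibody, against 1192 and 1160.0 with IgG, a mean of -0.28 ± 0.15 (SE, limma, adjusted p = 0.902). It was below its control in both trials. All 4 of its probe sets were below the control in both trials, the largest gap being -0.87 in trial 2 on the third of them. They read the same RNA and are not separate evidence. ZNF697 and ZNF789 averaged -1.04 ± 0.59 and -0.81 ± 0.46; ZNF697 differed by -2.19 in trial 1 and 0.11 in trial 2, at signals near background. ZFP36 had 698 and 487 with anti-DJ1 antibody, against 283 and 579 with IgG, which gave log2 changes of 1.29 in trial 1 and -0.25 in trial 2. ZNF653 was the only gene at least 2-fold apart the same way in both trials (background 2.05%), by 1.36 and 1.26. Its signals, 23.1 and 15.6 with anti-DJ1 antibody, against 6.18 and 3.87 with IgG, were all below background. ZNF32 and ZNF330 were 2-fold apart in opposite directions in the trials (background 2.07%), also near background. The median 95% confidence interval reached 1.41-fold to either side; for 33 genes the interval lay within 2-fold, and for 9 it reached further.

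Injected embryos were compared with the single non-injected array to ask what injection itself changed. With the trial term, each fitted change equals the mean of the trial 1 injected arrays minus the non-injected array. The trial 2 arrays enter only through the spread. Of the 42 genes 1 passed, ZKSCAN5, or 2.38% against a background of 2.71% (1.87% higher and 0.84% lower). At an unadjusted p under 0.05 stood 8 genes, and 19.4% of all probe sets. ZKSCAN5 had 3829 in anti-DJ1 and 3948 in IgG embryos of trial 1, against 2184 in non-injected embryos of that trial. The trial 2 arrays, at 1092 and 964, were below the non-injected array, which had no partner in trial 2. The log2 change was 0.83 ± 0.15 (SE, limma, adjusted p = 0.0186); without the trial term it was -0.13 and not past the threshold.

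ZNF566, a KRAB gene, had 199 and 161 in anti-DJ1 and 189 and 188 in IgG embryos, against 85.5 in non-injected embryos. All 4 injected arrays were above it, but the change, 1.14 ± 0.31 (SE, limma, adjusted p = 0.0682), did not pass, and its second probe set differed by 0.08 ± 0.43. ZNF382, a KRAB gene that lies 2 coding genes away in the RefSeq order, had 139 and 150.3 in anti-DJ1 and 162 and 129 in IgG embryos, against 65.9 in non-injected embryos, a difference of 1.13 ± 0.35 (SE, limma, adjusted p = 0.0991). ZNF382 was singled out after its values were seen. Other neighbours did not follow. ZNF146, 3 coding genes from ZNF382, differed by -0.87 ± 0.65, and ZNF568, 3 from ZNF566, by 0.54 ± 0.61 (SE, limma, adjusted p = 0.508 and 0.687). ZNF207 differed by 0.45 ± 0.13 (SE, limma, adjusted p = 0.0886). ZNF566, ZNF382 and ZNF207 passed where only the upper 40% of probe sets were tested, and 1028 probe sets in all passed there. On the lower side ZNF395, ZNF789 and ZNF697 stood at -0.44 ± 0.18, -1.17 ± 0.57 and -1.21 ± 0.72 (limma, adjusted p = 0.218, 0.287 and 0.394). Of the partner lists, DNMT1 was lower in injected embryos, at -0.65 ± 0.14 (SE, limma, adjusted p = 0.0323). ZFX, a zinc finger factor of the X chromosome, was higher, at 1.87 ± 0.24 (SE, limma, adjusted p = 0.00401). Both calls ended without the trial term or without the mean-variance trend, where 0 probe sets passed.

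Trial 2 was also set against trial 1, to show how embryo arrays of the same kind vary. Of the 42 genes, 13 differed between trial 2 and trial 1 (31.0%, against a background of 32.3%), 9 higher and 4 lower in trial 2 (backgrounds 18.9% and 13.4%). Under quantile normalization the split was 6 higher and 4 lower, and under a common 75th percentile 6 higher and 7 lower. The median of all tested probe sets was 0.14 as deposited and -0.09 under the 75th percentile. Without the mean-variance trend 0 genes passed.

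ZKSCAN5 fell by the most. It had 1092 in anti-DJ1 and 964 in IgG embryos of trial 2, against 3829 and 3948 in those of trial 1. Both pairs moved alike, by -1.81 and -2.03, with a mean of -1.92 ± 0.12 (SE, limma, adjusted p = 7.08e-06). ZNF577, ZNF106 and ZBTB33 fell by less, at -0.64 ± 0.19, -0.47 ± 0.11 and -0.36 ± 0.10, and for ZBTB33 the change was -0.04 under quantile normalization. The other probe sets of ZNF106 did not fall, at 0.00067 ± 0.14 and 0.39 ± 0.19 (SE). ZNF513 had 828 in anti-DJ1 and 933 in IgG embryos of trial 2, against 361 and 266 in those of trial 1. It was higher in both pairs, by 1.49 ± 0.20 (SE, limma, adjusted p = 0.000213).

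ZFP91 and ZFP64 were higher by 1.26 ± 0.23 and 1.33 ± 0.44, ZNF648 by 1.13 ± 0.14 and ZNF706 by 1.04 ± 0.12 (limma, adjusted p = 0.000123 and 9.11e-05). ZNF277, ZNF236, ZNF133 and ZNF75D rose by 0.82 ± 0.18, 0.80 ± 0.20, 0.69 ± 0.17 and 0.56 ± 0.17. The change had the same sign in the anti-DJ1 and the IgG pair for 29 of the 42 genes. At least 2-fold in both pairs were 2 genes higher (background 5.49%) and 1 lower (background 1.63%). The EF1A 3′ to 5′ ratio moved with the trial as given above.

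**Figure D5:**
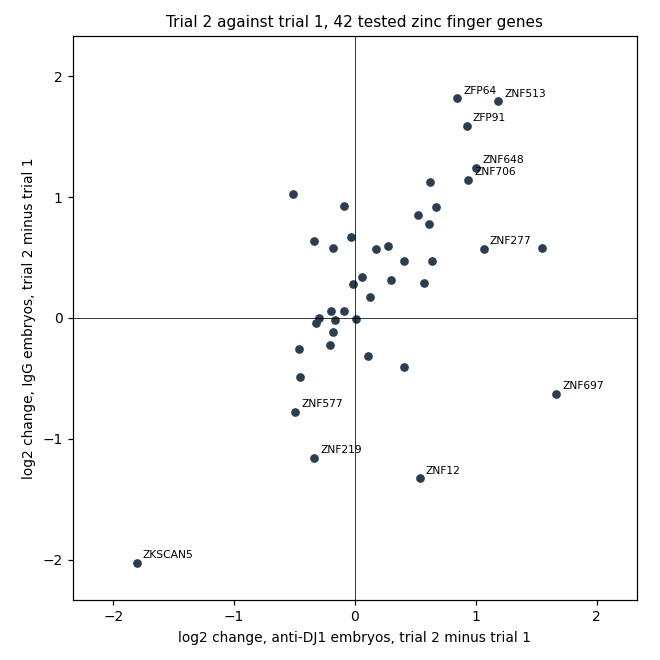
Log2 change, trial 2 minus trial 1, for the 42 tested zinc finger genes, in anti-DJ1 embryos on the horizontal and in IgG embryos on the vertical axis, 1 point per gene. ZKSCAN5 lies at the lower left at -1.81 and -2.03, and ZNF513, ZFP91, ZNF648 and ZNF706 lie at the upper right.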

How the data were processed

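RNA of 6 pig samples (50 ng each, Picopure extraction, biotin labelling in 2 cycles) was hybridised to Affymetrix Porcine Genome Arrays, per the labels' protocols. The deposited values are linear probe set intensity signals, summarised with MAS5 according to the submitters' processing notes. Which MAS5 version and scaling target applied is not given in the sources here, nor are detection calls. Trimmed means of the arrays lay between 500.1 and 500.2, which shows a common scaling, and the number of arrays limits precision. Of 24123 probe sets, 124 controls were left out, 10069 had a single symbol, 198 several and 13732 none in the platform annotation, which can be old. Of the 56 genes, 55 (all but ZBTB33) were found in the RefSeq table (Sscrofa11.1), used for gene order only.

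Signals were set to log2(signal + 4.57), 4.57 being the 10th percentile, and probe sets in the upper 60% by mean (14399, mean signal above 39.6) were tested with limma 3.58.1 (lmFit, eBayes with trend) in R 4.3.3, fitting group and trial, two-sided, Benjamini-Hochberg adjusted over all of them, at 0.05. The fit had 1 residual degree of freedom and 11.7 in all after moderation, and single arrays were taken to vary like replicated ones. Fold changes on this scale understate those of dim genes, and errors are SEs of the fit. The trial term sets embryo groups to the level of trial 1, so fitted changes against donor cells can differ from the listed signals. Plain mean log2 signals gave ZKSCAN5 9.30-fold lower and ZNF513 2.29-fold higher in embryos. Folds given as a bound use such plain means, with no trial term. "At least" folds set the bright group's mean log2 signal against each dim array's background mark, or its signal where that is higher. The trial block follows the design text, and same-trial deviations correlated at r = 0.588 over tested probe sets. The test was also run on simulated data with the same spread on every array. That run cannot show whether the single arrays vary like the replicated ones.

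The members and lists were chosen with earlier results of these data known. Named genes were the 10 largest called changes in each direction, or up to 3 with the smallest p where fewer than 3 passed, plus genes 2-fold apart in both trials, genes with the highest signals, genes whose probe sets disagree, and up to 4 genes a list; further called or illustrative genes were chosen after their values were seen. Alternatives covered the pseudocount, filter, scaling, trend, block, probe set choice and left-out arrays.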

Additional observations from a re-analysis of the deposited data

Results flagged for a closer look

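ZNF32 and ZNF330 moved at least 2-fold in opposite directions in the 2 trials of anti-DJ1 against IgG embryos (background 2.07%), and the difference between the trials was not tested. ZNF32 differed by 1.71 on the log2 scale in trial 1, from 30.1 in anti-DJ1 against 6.04 in IgG embryos, and in trial 2 had 1.42 in anti-DJ1 against 27 in IgG embryos. ZNF330 differed by -1.92 in trial 1, from 3.1 in anti-DJ1 against 24.4 in IgG embryos, and in trial 2 had 27.4 in anti-DJ1 against 3.77 in IgG embryos. All but the ZNF330 value in IgG embryos of trial 1 were below the background mark of their array.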

How the results depend on the processing

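For anti-DJ1 against IgG embryos, 0 genes passed under every alternative run, leaving out each array included, while ZNF648 ran between -0.31 and 0.93 with 1 array left out, at -0.19 without the second anti-DJ1 array and -0.31 without the first IgG array (no trial term). For injected against non-injected embryos, where 1 gene passed, 2 passed with a pseudocount at the 25th percentile and 4 among the upper 40% of probe sets, and 0 without the trend, with no replicate block, or without any 1 of the 4 injected arrays (range 0 to 0). ZKSCAN5 in that comparison was -0.13 with no replicate block and between -0.64 and 0.38 with 1 array left out (-0.58 and -0.64 without the first anti-DJ1 or IgG array); these fits have no trial term, and its trials differ by -1.92. Over all probe sets that comparison called 390, from 0 without the block or the trend to 1028 in the upper 40%. For embryos against donor cells, where 29 genes passed, 23 to 37 did under the alternatives, 23 with no replicate block, 23 to 24 with 1 injected array and the block both left out, and 28 without the non-injected array with the block kept. ZNF207 reversed to -2.77 when its probe sets were averaged, which its dim second probe set accounts for by construction. The trial comparison called 13 genes, 10 to 14 under the others and 0 without the trend; leaving out an array could not be fitted there with the block. For anti-DJ1 against IgG embryos all probe sets gave 43 calls in the upper 40%. The cause of the other changes was not tested.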
